A study of Arabidopsis thaliana with 24 samples.

Results

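The heat response of Arabidopsis plants that lack both chromatin factors HD2C and BRM was compared with that of wild type, gene by gene. The quantity is a difference of differences on the log2 scale: heat minus control in brm-1 hd2c-3, minus heat minus control in WT. It was taken over all 16552 genes with a probe set (a group of array probes read as 1 value) named for 1 gene, out of 38408 probe sets in the series, and rests on 12 of the 24 arrays. All plants were of the Col-0 ecotype, 3 weeks old, and grown on soil in 16 h light and 8 h dark at 70% humidity. The 4 groups of 3 arrays are WT in control, WT after 1 h at 38 °C, brm-1 hd2c-3 in control and brm-1 hd2c-3 after the same heat. The other 12 arrays, of hd2c-3 and of brm-1 in both conditions, serve below as a comparison. The labels name plants and no organ, and the design text says that the biological replicates were chosen for alike levels of marker genes, so the spread between arrays is that of chosen replicates. Values are log2 intensities, and each ± is the moderated standard error of limma over 3 arrays per group.

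HD2C is a plant-specific histone deacetylase, an enzyme class that removes acetyl groups from histones and is linked to lower transcription. BRAHMA (BRM) is the ATPase of a SWI/SNF complex, which moves or evicts nucleosomes and can raise or lower the transcription of its targets. Heat makes plants switch on chaperone genes within minutes, through heat shock factors, while genes of growth and cell division are turned down. A gene can respond differently in a mutant because its level after heat differs, because its starting level differs, or both, and each gene below is described by that distinction.

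No probe set is named for BRM or HD2C, so the labels were not checked on the targeted transcripts. The hydroxycinnamate glucosyltransferase gene UGT84A3, chosen after its values were seen, was low in brm-1 and in the double mutant in both conditions. It stood at 2.71, 2.77 and 2.82 in double mutant controls and at 3.73, 3.21 and 3.37 after heat. In WT it read 5.01, 5.05 and 5.36 in control and 5.42, 5.23 and 5.04 after heat, with no overlap in either condition. The measured light-harvesting genes LHCB4.1, LHCB4.2 and LHCB4.3 had mean levels from 4.16 to 9.24. Of 8 flower and 7 root markers looked for, 0 had a probe set named for 1 gene, so these organs could not be checked. Array medians ran from 3.42 to 3.65. The median SD of a gene between replicates was 0.13 in WT control, 0.17 in WT heat, 0.16 in double mutant control and 0.21 in double mutant heat. Among all 24 arrays double mutant heat replicate 1 had the lowest weight in limma (0.353), and its correlations with the other 2 replicates, 0.982 and 0.981, were the lowest of any replicate pairs. Without it 215 genes were called in the comparison below, against 243 with it. Only 1803 of the 16552 genes carry a symbol, so most called genes are known here by locus alone.

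The double mutant responded to heat differently from WT at 243 genes. The change was positive at 190 of them (called higher) and negative at 53 (called lower). A positive change can be a stronger rise, or a fall in WT that was weaker, lost or reversed, and a negative change the converse. The median change was 1.26 among the genes called higher and −0.99 among those called lower, against −0.02 over all genes. A change of at least 2-fold was seen for 148 higher and 24 lower genes. The threshold for a call was an adjusted p (Benjamini-Hochberg, over all genes) under 0.05 in limma, which 1.47% of the genes tested passed, 1.15% higher and 0.320% lower. The unadjusted p was under 0.05 for 1944 genes (11.7%). The total count was 138 without double mutant heat replicate 3, 147 without WT control replicate 3, 154 without double mutant control replicate 3, 160 without WT heat replicate 3 and 311 without double mutant heat replicate 2. A core of 108 genes, 95 higher and 13 lower, kept the call whichever of the 12 arrays was left out.

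Levels after heat made the difference at most called genes. The share of the change that comes from the heated plants is the double mutant minus WT difference after heat, divided by that difference minus the one in control. Heat levels are said to make it at a share of 2/3 or more, control levels at 1/3 or less, and both in between. By this measure the change was made by heat levels at 165 genes, by control levels at 18 and by both at 60. Among the genes called higher the split was 134, 13 and 43, and among those called lower 31, 5 and 17. The division moved with single arrays: the count made by heat levels was 99 without double mutant heat replicate 3, and the count made by control levels was 5 without WT heat replicate 3. Some genes described below lay beside a limit. Among those made by both, the share was 0.334 for SFP2, 0.663 for AGL94 and EXLA2, and 0.659 for BUB3.1. For ATPMEPCRB, described as made by heat levels, it was 0.695.

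The calls of each condition on its own gave a like picture, on the same arrays. The double mutant was called against WT after heat but not in control at 202 of the 243 genes, in control but not after heat at 26, in both and in opposite directions at 6, in both and the same way at 2, and in neither at 7. Over all genes, 5.15% were called higher and 4.19% lower after heat, and 1.53% higher and 1.59% lower in control. Of the 190 genes called higher, 180 had no overlap between the arrays of the double mutant and WT after heat and 86 had none in control. Of the 53 called lower these counts were 47 and 28. Over all 16552 genes tested there were 3540 after heat and 3451 in control, a smaller share in both conditions. The called genes were chosen on these same arrays, so the counts are a description.

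**Figure D1:**
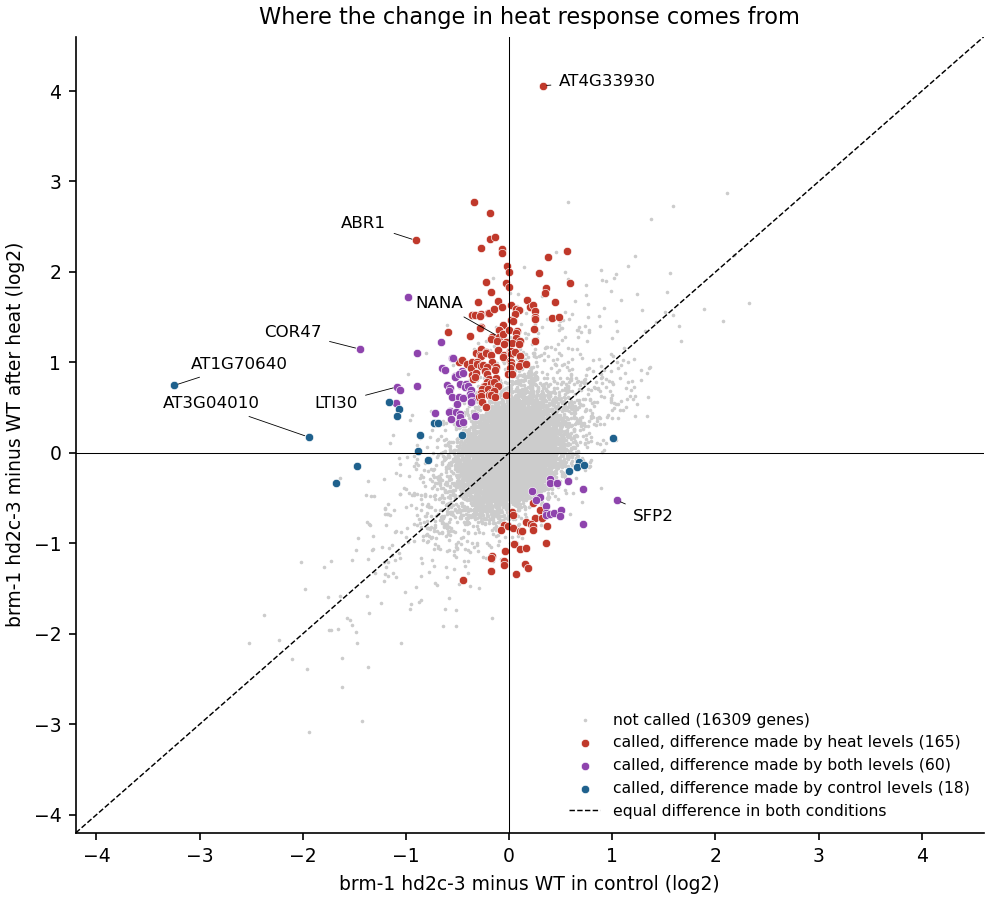
Difference between brm-1 hd2c-3 and WT in control (x axis, log2) and after heat (y axis, log2) for each gene. Genes called in the change of heat response are coloured by the levels that make it, 165 by heat levels, 18 by control levels and 60 by both, and a gene on the dashed line differs equally in both conditions. Called genes spread mainly along the y axis, whereas AT1G70640 and AT3G04010 lie along the x axis.

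The called genes were grouped by their heat response in WT. Of the 190, WT showed no call for 112 and all of these rose in the double mutant. Another 38 rose in both genotypes, and by more in the double mutant. The remaining 40 fell in WT, and of these 14 rose in the double mutant, 25 were not called there and 1 fell in both. Of the 53 genes called lower, 26 fell in the double mutant with no call in WT, 16 fell in both and 11 rose in WT, of which 2 rose, 2 fell and 7 were not called in the double mutant. These heat responses share their arrays with the comparison that chose the genes, so the counts describe the genes and are no further test. Over all genes, heat raised 5.80% and lowered 7.48% in WT, and raised 9.38% and lowered 12.1% in the double mutant. Genes with a heat call in WT were thus more frequent among the 190 and the 53 than over all genes.

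**Figure D2:**
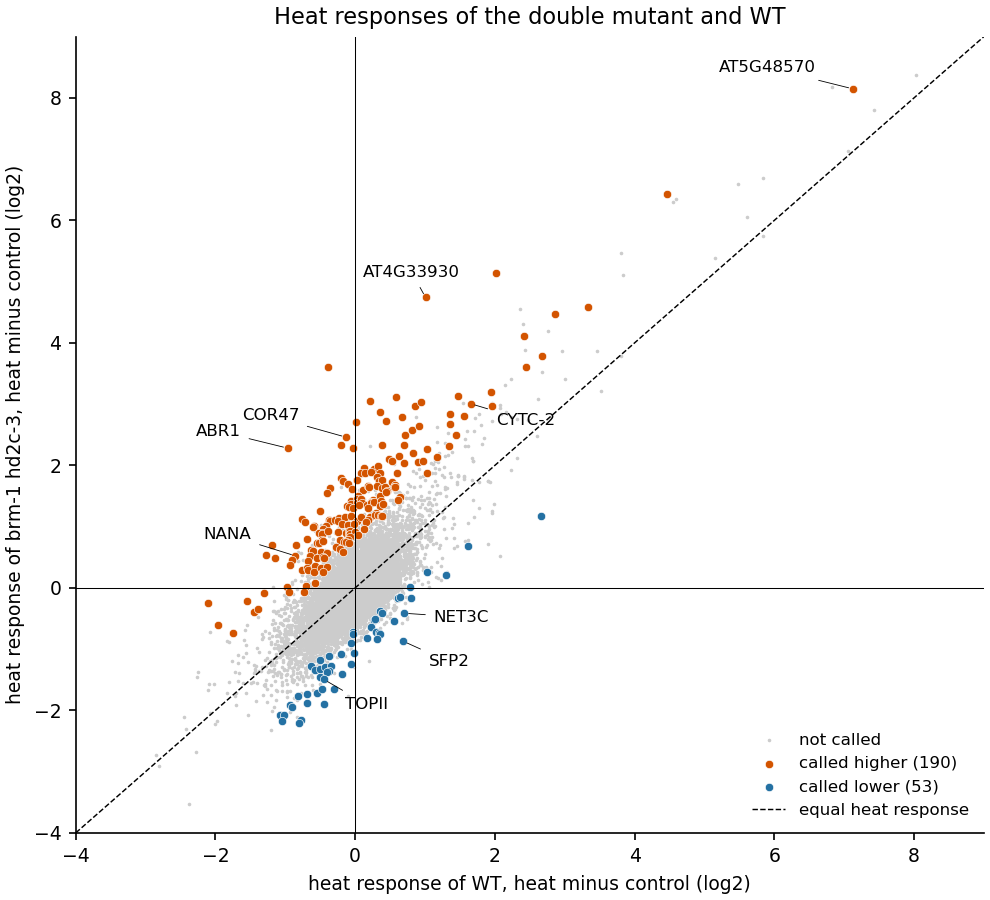
Heat response of WT (x axis, log2) against that of brm-1 hd2c-3 (y axis, log2) for each gene, with genes called higher (190) or lower (53) coloured and equal responses on the dashed line. COR47 and ABR1 lie where WT did not rise and the double mutant did, while AT5G48570 rose strongly in both.

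Many cold and dehydration genes encode hydrophilic proteins, dehydrins among them, that protect membranes and proteins when cells lose water or freeze. Of 8 measured members 4 were called higher in the change of heat response (1.15% of all genes) and 0 lower (0.320%) in limma. At an unadjusted p under 0.05, 6 were higher and 0 lower, and the median change was 0.85. The members with no change above 0 were COR27 (−0.24 ± 0.23) and AT4G33980 (−0.01 ± 0.33). In control 4 of the 8 were lower in the double mutant than in WT (1.59% of all genes). After heat 3 were higher and 2 lower (5.15% and 4.19% of all genes). The count of called members was 6 under cyclic loess scaling of the arrays, and 2 without WT control replicate 1 or 3, WT heat replicate 1 or 3, double mutant control replicate 3, or double mutant heat replicate 1 or 3.

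COR47, a dehydrin, showed the clearest exchange of order. Its control levels were 8.41, 8.58 and 8.70 in WT and 7.19, 7.20 and 6.96 in the double mutant. After heat the WT arrays read 8.24, 8.56 and 8.48 and the double mutant 9.53, 9.35 and 9.85. The double mutant thus lay below all WT arrays in control and above all of them after heat. Its heat response was 2.46 ± 0.23 against −0.13 ± 0.23 in WT, a change of 2.60 ± 0.32 (6.05-fold, limma adjusted p = 0.000279). Both levels made it, at −1.45 in control and 1.15 after heat, each called.

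COR15B, a protein of the chloroplast stroma, fell with heat in WT and did not pass the test in the double mutant. WT went from 9.25, 9.14 and 9.25 to 7.99, 7.82 and 7.67, and the double mutant from 8.86, 8.58 and 8.68 to 8.4, 8.35 and 8.34. The groups did not overlap in either condition, with the double mutant lower in control and higher after heat. The change was 1.05 ± 0.21 (limma adjusted p = 0.00832), made by both levels, of which only the one after heat was called (0.54 ± 0.15, adjusted p = 0.0205). COR15A, its neighbour and near-copy, differed more in control (−1.37 ± 0.12) than after heat (−0.76 ± 0.12), and its change of 0.61 ± 0.17 missed the threshold (limma adjusted p = 0.0796). Such near-identical pairs may share probes, so signal of one copy can appear in the other.

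LTI30, another dehydrin, was a dim gene. WT had 2.66, 2.26 and 3.33 in control and 1.35, 1.58 and 1.48 after heat. The double mutant had 1.86, 1.70 and 1.44 in control and 2.54, 1.60 and 2.46 after heat. The arrays did not overlap in either condition, although double mutant heat replicate 2 stood just above the highest heated WT array. The change was 1.81 ± 0.43 (limma adjusted p = 0.0287), made by both levels, neither of which was called alone. It lost its call when any of 8 arrays was left out.

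KIN2, a small cold and abscisic acid induced protein, was the named gene whose control levels made the difference. WT read 11.33, 11.27 and 11.36 in control and 10.67, 10.86 and 10.68 after heat, and the double mutant 10.75, 10.99 and 10.83 and then 11.05, 10.79 and 10.96. The groups were apart in control, and after heat they overlapped. The change was 0.65 ± 0.16 (limma adjusted p = 0.0448), with a control difference of −0.46 ± 0.12 and one of 0.19 ± 0.12 after heat, and it lost its call without any of 9 arrays. KIN1, its neighbour and near-copy, rose in both genotypes, by 1.18 ± 0.23 in WT and 2.38 ± 0.23 in the double mutant (change 1.20 ± 0.32, limma adjusted p = 0.0643).

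ABR1, an AP2-type transcription factor that represses abscisic acid responses, had the largest change of any gene with a symbol. WT read 4.80, 5.42 and 5.82 in control and 3.82, 4.87 and 4.45 after heat. The double mutant read 3.66, 4.84 and 4.83 in control and 7.11, 6.14 and 6.93 after heat. All heated double mutant arrays lay above every other array of these 4 groups, while in control WT and the double mutant overlapped. The change was 3.25 ± 0.50 (9.52-fold, limma adjusted p = 0.00119), made by heat levels, and it kept its call without any 1 array.

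NDB2, CYTC-2 and HEMA2 were called higher, each through heat levels. NDB2, an NAD(P)H dehydrogenase on the outer face of the inner mitochondrial membrane, read 4.27, 4.20 and 4.57 in WT control and 4.03, 4.52 and 4.21 in WT heat. In the double mutant it read 3.98, 4.15 and 4.10 in control and 5.34, 5.26 and 5.60 after heat. It rose in the double mutant with no call in WT (change 1.42 ± 0.23, limma adjusted p = 0.00201).

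CYTC-2, a cytochrome c, rose in both genotypes. It went from 4.41, 4.57 and 4.50 to 6.03, 6.18 and 6.24 in WT and from 4.6, 4.43 and 4.10 to 7.53, 7.15 and 7.47 in the double mutant. The heat responses were 1.66 ± 0.16 and 3.01 ± 0.16, a change of 1.35 ± 0.23 (limma adjusted p = 0.00245). HEMA2, a glutamyl-tRNA reductase of the first steps of tetrapyrrole synthesis, read 3.85, 4.10 and 4.15 in WT control, 3.90, 4.30 and 3.71 in WT heat, 4.11, 3.91 and 3.53 in double mutant control and 5.0, 5.19 and 5.49 in double mutant heat. Its heat response was near 0 in WT (−0.06 ± 0.20) and 1.38 ± 0.20 in the double mutant (change 1.44 ± 0.28, limma adjusted p = 0.00679).

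TET8, a tetraspanin of membrane vesicles, rose by 0.59 ± 0.16 in WT and by 1.87 ± 0.16 in the double mutant. Heated WT arrays read 6.89, 6.97 and 6.53 and heated double mutant arrays 8.16, 7.97 and 8.30, from control levels between 6.13 and 6.40 in both genotypes (change 1.27 ± 0.23, limma adjusted p = 0.00407). NTMC2T6.2, a C2-domain membrane protein, read 3.25, 3.58 and 2.88 in heated WT and 4.38, 4.46 and 4.73 in the heated double mutant (change 1.67 ± 0.37, adjusted p = 0.0182, lost without any of 4 arrays). The pectin methylesterase ATPMEPCRB read 4.45, 4.68 and 4.53 in heated WT and 5.53, 5.56 and 5.67 in the heated double mutant, and rose in the latter alone (change 1.48 ± 0.29, limma adjusted p = 0.00679).

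For the 3 genes just named heat levels made the difference, and for the expansin-like gene EXLA2 both did. ATPMEPCRB and EXLA2 lay close together, on either side of the limit. ATPMEPCRB differed by −0.45 in control, without overlap but not called, and by 1.03 after heat. EXLA2 read 3.36, 3.71 and 4.15 in WT control, 3.43, 3.29 and 3.12 in WT heat, 3.24, 3.33 and 3.28 in double mutant control and 4.29, 4.38 and 3.87 in double mutant heat. The double mutant lay just below all WT arrays in control, where the difference of −0.46 was not called, and above all of them after heat, by 0.90 (change 1.36 ± 0.28, limma adjusted p = 0.0124). EXLA2 was the only called one of 32 expansins and xyloglucan endotransglucosylases, enzymes and proteins that loosen the wall, whose median change was −0.04.

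Opposite responses were rare among the named genes. NANA, an aspartyl protease of chloroplasts, fell with heat in WT from 6.13, 6.04 and 6.33 to 5.40, 5.36 and 5.16. In the double mutant it rose from 6.24, 6.04 and 5.93 to 6.81, 6.24 and 6.72. Control levels overlapped and heated levels did not. Both heat responses were called, at −0.86 ± 0.15 and 0.52 ± 0.15, and the change was 1.38 ± 0.22 (limma adjusted p = 0.00132), made by heat levels.

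SFP2, a sugar transporter of the sugar-porter family, did the reverse. It rose in WT from 4.06, 4.11 and 3.92 to 4.68, 4.83 and 4.64 and fell in the double mutant from 5.30, 4.92 and 4.99 to 3.74, 4.53 and 4.31. The double mutant lay above WT in control and below it after heat, with no overlap. Its change was the most negative of all called genes, at −1.56 ± 0.32 (limma adjusted p = 0.00935). Both levels made it, just beside the limit for control levels, and only the control difference of 1.04 ± 0.22 was called.

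Besides ABR1, the named transcription factors were the MADS-box gene AGL94 and WRKY6, a factor of senescence and phosphate responses, both called higher. The factor PIF7, outside the naming rule, was also called higher (change 0.98 ± 0.21, limma adjusted p = 0.0154). WRKY6 fell with heat in WT, from 6.52, 6.53 and 6.65 to 6.08, 6.09 and 5.78, and read 6.58, 6.61 and 6.58 and then 6.86, 6.88 and 6.82 in the double mutant. The change of 0.84 ± 0.21 (limma adjusted p = 0.0481) was made by heat levels and was lost without any 1 of the 12 arrays. AGL94 was dim, between 2.40 and 4.0 on the arrays of these groups, and rose in the double mutant alone (change 1.33 ± 0.25, adjusted p = 0.00644), through both levels, of which only the one after heat was called. Of the 7 measured WRKY genes WRKY6 alone was called, and the median change was 0.41.

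**Figure D3:**
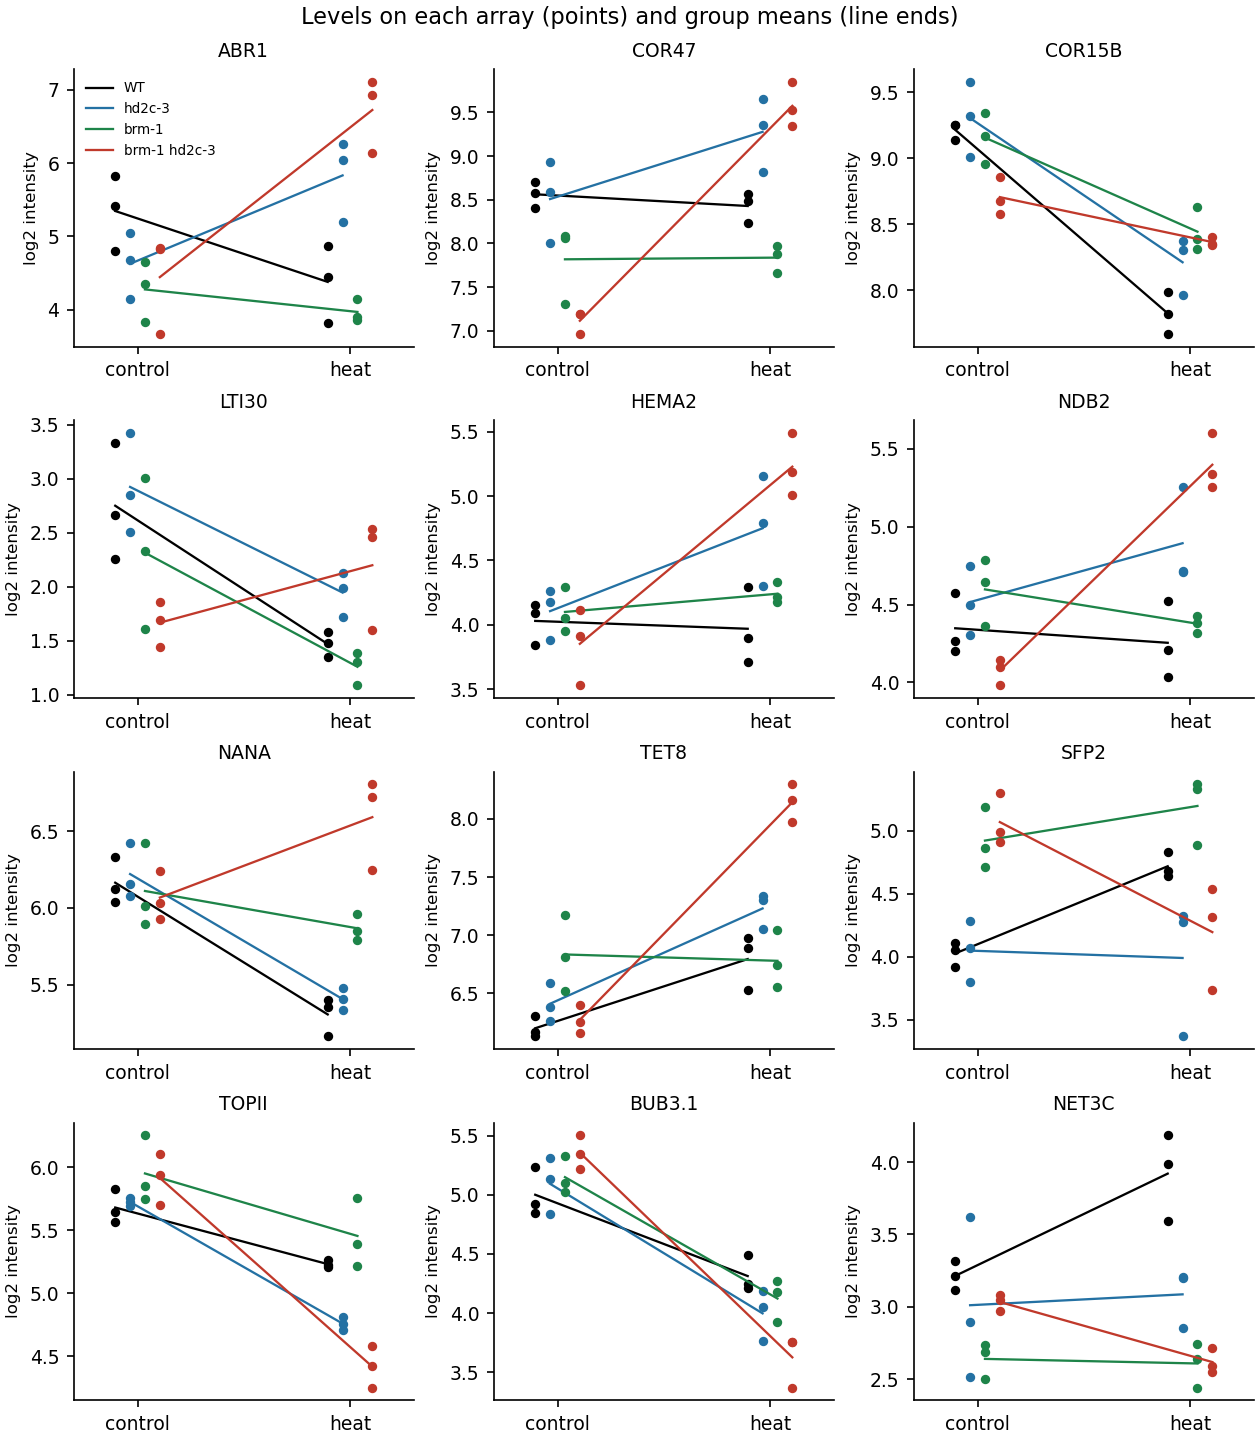
Log2 intensity of 12 named genes on each of the 24 arrays, in control and after heat, with a line from the control mean to the heat mean of each genotype. The double mutant separates from WT mainly on the heat side for ABR1, HEMA2, NDB2, NANA and TET8, and on both sides for COR47, COR15B and SFP2.

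The list of mitotic genes holds only Aurora (AUR) and BUB genes, TOPII and AT2G20635, and was chosen with earlier results of these data known. Of its 8 measured members 2 were called in the change of heat response, both lower (0.320% of all genes were called lower). With heat 7 of the 8 fell in the double mutant and 5 in WT, where 12.1% and 7.48% of all genes fell. The list's median change was −0.64, with 7 of 8 members below 0, all 7 at an unadjusted p under 0.05, which 11.7% of all genes passed in either direction. The exception, AT2G20635, changed by 0.02. After heat 4 of the 8 were lower in the double mutant than in WT (4.19% of all genes). In such plant samples, fewer dividing cells and less RNA per cell cannot be told apart. The called members were TOPII, a DNA topoisomerase that untangles chromosomes, and BUB3.1, of the spindle checkpoint.

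TOPII fell in WT from 5.57, 5.64 and 5.83 to 5.22, 5.21 and 5.26. In the double mutant it fell from 6.10, 5.70 and 5.94 to 4.58, 4.42 and 4.25. The heated groups were well apart and the control groups overlapped. Its fall was −0.45 ± 0.15 in WT and −1.49 ± 0.15 in the double mutant (change −1.05 ± 0.21, limma adjusted p = 0.00797, heat levels). BUB3.1 fell from 4.92, 4.85 and 5.23 to 4.49, 4.24 and 4.21 in WT, and from 5.50, 5.35 and 5.22 to 3.76, 3.75 and 3.37 in the double mutant. Both levels made its change of −1.04 ± 0.22 (limma adjusted p = 0.0154), which was lost without WT heat replicate 1 or double mutant heat replicate 3, leaving 1 called mitotic gene. The control difference of BUB3.1, 0.36, was not called, and the control arrays overlapped. The checkpoint kinase BUBR1 had a change of as large a size, −1.06 ± 0.29, that missed the threshold (adjusted p = 0.0733).

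FBL17, 3xHMG-box1 and NET3C were also called lower. FBL17, an F-box protein that removes inhibitors of cell cycle kinases, fell from 6.80, 6.95 and 6.98 to 6.55, 6.27 and 6.21 in WT and from 6.88, 6.87 and 6.74 to 5.45, 5.68 and 5.36 in the double mutant (change −0.77 ± 0.20, limma adjusted p = 0.0481). 3xHMG-box1, a protein of condensed mitotic chromosomes, read 3.01, 3.43 and 3.39 in heated WT and 2.40, 2.08 and 2.15 in the heated double mutant (change −1.17 ± 0.27, adjusted p = 0.0260). NET3C, an actin-binding protein of contacts between the endoplasmic reticulum and the plasma membrane, rose in WT to 3.98, 3.59 and 4.19 and read 2.59, 2.72 and 2.55 in the heated double mutant (change −1.12 ± 0.27, limma adjusted p = 0.0372). Heat levels made the difference for these 3 genes. Their calls were lost without any of 11, 8 and 10 arrays, in the order given.

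Chaperone genes rose strongly in both genotypes, and few of them passed the test for a different response. Of 12 small heat shock proteins, which hold unfolding proteins, 9 rose in WT and 10 in the double mutant (5.80% and 9.38% of all genes), and 1 was called higher in the change (1.15%). The median change was 0.64, with 11 of 12 members above 0, and 7 of 12 were higher in the double mutant than in WT after heat (5.15% of all genes). At an unadjusted p under 0.05, which 11.7% of all genes passed, 5 were higher and 1 lower. The called member, AT4G21870, did not respond in WT, at 4.53, 5.06 and 5.40 in control and 5.24, 5.06 and 4.55 after heat. In the double mutant it went from 4.84, 4.66 and 4.69 to 5.81, 6.67 and 6.54 (change 1.66 ± 0.33, limma adjusted p = 0.00888, heat levels). Of the HSP70, HSP90 and HSP100 chaperones only 2 were measured, Hsp70-2 and AT3G09440, and both rose in both genotypes. Their changes of 1.36 ± 0.36 and 0.88 ± 0.26 missed the threshold (limma adjusted p = 0.0598 and 0.0948). After heat both were higher in the double mutant than in WT (5.15% of all genes).

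Among 9 co-chaperones and other heat-induced genes 7 rose in each genotype (5.80% of all genes in WT and 9.38% in the double mutant). In the change 1 was called higher (1.15% of all genes), the peptidyl-prolyl isomerase ROF2 (AT5G48570). At an unadjusted p under 0.05, which 11.7% of all genes passed, 5 were higher and 0 lower. After heat 5 of the 9 were higher in the double mutant than in WT (5.15% of all genes). ROF2 went from 3.36, 3.87 and 4.01 to 10.76, 10.95 and 10.90 in WT and from 2.93, 3.64 and 3.53 to 11.51, 11.57 and 11.47 in the double mutant (change 1.03 ± 0.26, limma adjusted p = 0.0448, both levels). The control difference of ROF2, −0.38, was not called, and the dim control arrays overlapped. ROF2 lost its call without any of 10 arrays, and the list's median change was 0.77. The HSP70 exchange factor Fes1A had a larger change, 1.91 ± 0.51, and missed the threshold (adjusted p = 0.0626). Heated WT replicate 1 was lowest for both genes that follow. Fes1A read 4.48, 6.04 and 6.34 in heated WT and 7.57, 7.58 and 7.86 in the heated double mutant, and the small heat shock protein AT1G52560 read 6.34, 7.49 and 7.36 and then 9.42, 9.0 and 9.41 (change 1.76 ± 0.50, limma adjusted p = 0.0831). The count of called co-chaperones was 3 with equal array medians and 4 under cyclic loess.

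The heat responses of these chaperone lists had higher medians than WT in all 3 mutants. Median heat responses of the small heat shock proteins were 4.21 in WT, 5.73 in the double mutant, 5.48 in brm-1 and 6.27 in hd2c-3. For the co-chaperones they were 2.40, 3.21, 3.14 and 3.51 in the same order. Fes1A rose by 4.31 in the double mutant, 4.22 in brm-1 and 4.29 in hd2c-3, against 2.40 in WT. The change of each mutant from WT uses the same WT arrays, so these are 3 views with a shared reference. The median heat response of the cold list was −0.58 in WT, −0.59 in brm-1, −0.49 in hd2c-3 and 0.05 in the double mutant.

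**Figure D4:**
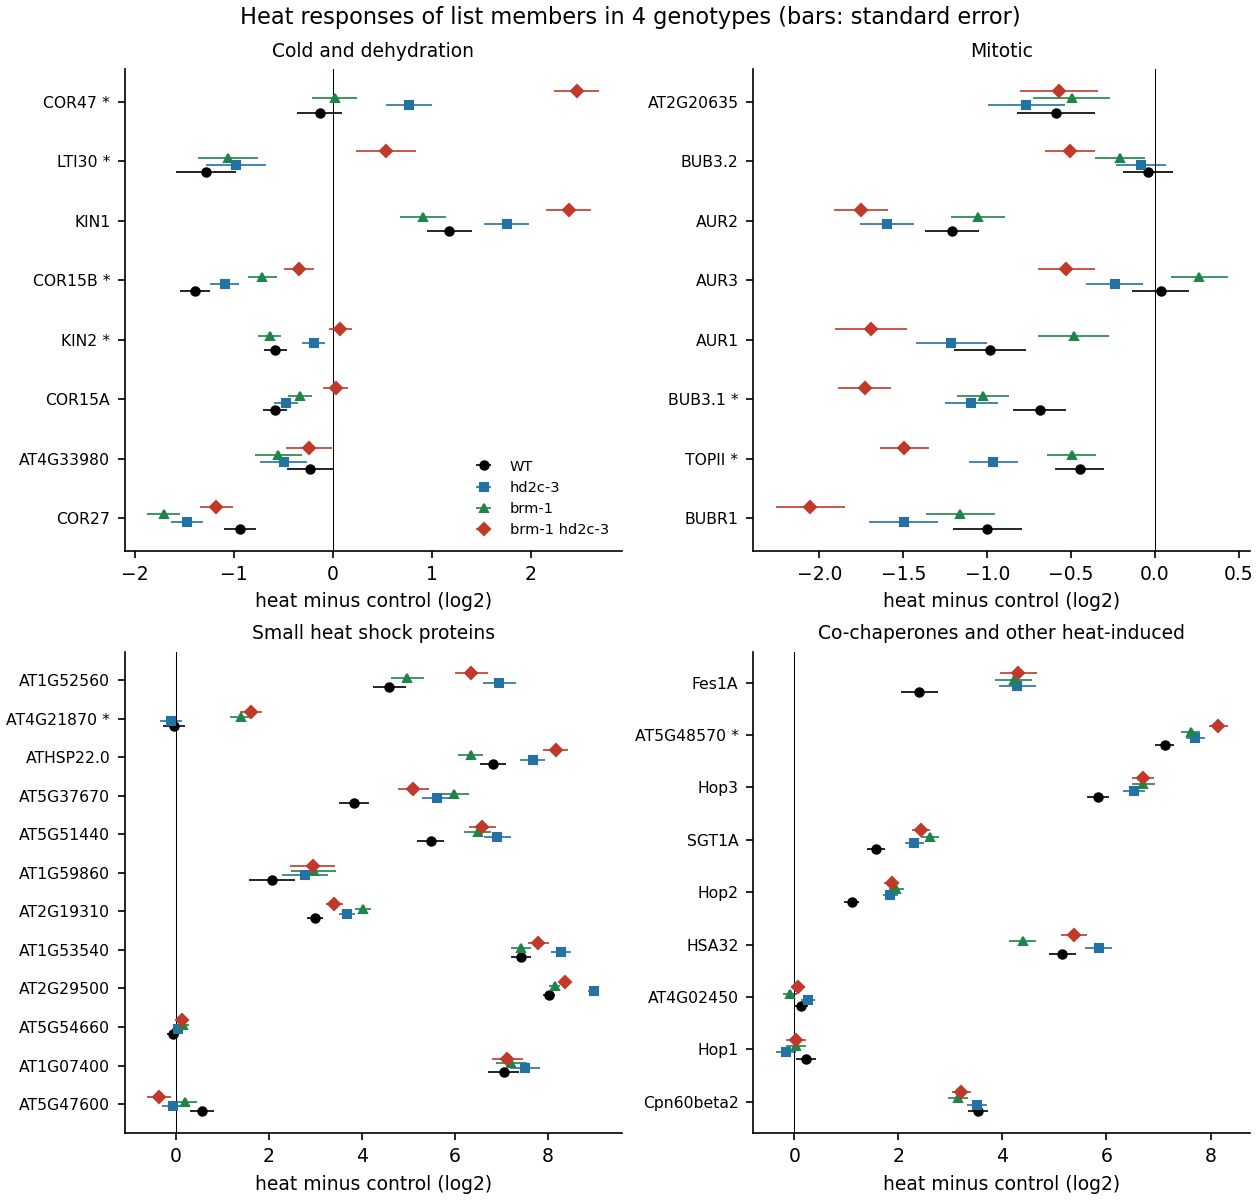
Heat response (log2, with standard errors of limma) of each measured member of 4 gene lists in the 4 genotypes. An asterisk marks members called in the double mutant change, 4 of 8 cold, 2 of 8 mitotic, 1 of 12 small heat shock protein and 1 of 9 co-chaperone genes. The double mutant lies apart from the other 3 genotypes for COR47, while all 3 mutants lie above WT for Fes1A.

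Several other lists had 0 called members in limma. The 6 genes of the unfolded protein response, which raises folding capacity in the endoplasmic reticulum, rose in 4 cases in WT and in all 6 in the double mutant, with a median change of 0.32 and 2 higher at an unadjusted p under 0.05. Of these the transcription factor BZIP60 had the largest change, 1.17 ± 0.32 (adjusted p = 0.0724). Genes of flavonoid and anthocyanin synthesis fell in 5 of 6 cases in WT and in 3 of 6 in the double mutant, where 5 of 6 were already lower than WT in control. Their change had a median of 0.43, and 2 were higher at an unadjusted p under 0.05. The dihydroflavonol reductase gene DFR stood at 9.08, 9.10 and 9.34 in WT control and at 6.97, 7.06 and 7.67 in double mutant control, and fell in both (change −1.15 ± 0.56, limma adjusted p = 0.428). The 63 genes of the plastid genome changed between −0.44 and 0.07, and the 12 of the mitochondrial genome between −0.29 and 0.05. The medians of these lists were −0.12 and −0.15, and turned to 0.04 and 0.00 under cyclic loess, so no direction is given for them. Lists of 51 UDP-glycosyltransferases, 28 cytochrome P450 genes, 14 glutathione transferases, 14 sugar transporters by family name and 13 auxin response genes had medians from −0.15 to 0.06, with 9, 3, 1, 2 and 2 members at an unadjusted p under 0.05 in that order, a threshold that 11.7% of all genes passed. The 9 SWI/SNF subunits had a median change of −0.00, with 1 higher and 1 lower at an unadjusted p under 0.05. COR15A, KIN1, PIF7, BUBR1, Fes1A, AT1G52560, BZIP60 and DFR were picked for mention after their values were seen.

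The largest change belonged to AT1G70640, a gene that the annotation used here gives no name. AT4G33930, also unnamed, changed by more than any gene with a symbol. AT3G04010, unnamed as well, changed by less than ABR1 or COR47. These unnamed genes were chosen after their values were seen. AT4G33930 read 4.34, 4.58 and 4.03 in WT control, 5.09, 5.76 and 5.12 in WT heat, 4.95, 4.41 and 4.57 in double mutant control and 9.29, 9.13 and 9.74 in double mutant heat. Heated double mutant arrays stood far above all others, with a change of 3.74 ± 0.46 (13.3-fold, limma adjusted p = 0.000279) made by heat levels. In hd2c-3 it rose to 5.89, 6.79 and 7.37 and in brm-1 to 6.94, 6.63 and 5.41.

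AT1G70640 and AT3G04010 changed through control levels. AT1G70640 read 6.83, 7.0 and 7.47 in WT control, 6.37, 7.15 and 6.61 in WT heat, 3.99, 3.70 and 3.89 in double mutant control and 7.37, 6.79 and 8.21 in double mutant heat. It was thus low in the double mutant before heat and within or above the range of WT after it (change 3.99 ± 0.56, 15.9-fold, limma adjusted p = 0.000482). In brm-1 it was low in both conditions, at 3.56, 5.23 and 5.62 and then 3.31, 4.48 and 4.10, and in hd2c-3 it was high in both, at 7.87 to 8.37 and 7.5 to 7.91.

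AT3G04010 was also low in the double mutant before heat and low in brm-1 in both conditions, but it rose with heat in WT. It read 4.48, 4.26 and 4.74 in WT control and 5.29, 5.56 and 5.21 in WT heat. The double mutant had 2.30, 2.73 and 2.62 in control and 5.92, 4.93 and 5.73 after heat, while brm-1 had 2.76, 3.37 and 3.11 and then 3.36, 2.91 and 3.15. The change was 2.12 ± 0.30 (limma adjusted p = 0.000482), and the heat response of the double mutant exceeded that of brm-1 by 2.92 ± 0.30 (adjusted p = 2.6e-05).

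The called genes lay on all 5 nuclear chromosomes, at 1.3% to 1.78% of the genes tested on each, and 0 of 75 organelle genes were called. Of 10451 pairs of measured genes next to each other in the annotation, 5 had both members called, 3 of them in the same direction. One such pair was AT2G32190 and AT2G32200, with changes of 2.52 and 3.12. The median level over all arrays was 5.55 for the genes called higher and 5.45 for those called lower, against 3.28 for all genes.

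The levels of the single mutants do not enter the difference that chose the 243 genes, although their spread enters the pooled SE behind every call. In hd2c-3, 91 of the 190 genes called higher rose (47.9%, against 8.88% of all genes tested) and 18 fell (9.47%, against 11.2%). In brm-1, 60 rose (31.6%, against 7.28%) and 25 fell (13.2%, against 8.51%). Of the 53 genes called lower, 31 fell in hd2c-3 (58.5%, against 11.2%) and 26 in brm-1 (49.1%, against 8.51%), while 6 rose in each. Called from the 12 WT and double mutant arrays alone, a choice added after the data were seen, 183 genes were higher and 40 lower, and 182 of these 223 were among the 243. Of these 183, 97 rose in hd2c-3 (53.0%) and 62 in brm-1 (33.9%), and of these 40, 20 fell in hd2c-3 (50%) and 19 in brm-1 (47.5%). The called genes were also the brighter ones: 75.8% of those called higher and 79.2% of those called lower had a mean level of at least 4, against 42.1% of all genes, and the part of brightness in these shares was not tested.

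Median sizes are given as a description, since the genes were chosen for the distance between WT and the double mutant, which sets the outer values. For the genes called higher the median heat response was 0.01 in WT, 0.14 in brm-1, 0.52 in hd2c-3 and 1.35 in the double mutant. For those called lower it was −0.19, −0.36, −0.55 and −1.11 in the same order. A direct comparison of hd2c-3 with brm-1, added after the data were seen, called 4 of the 190 genes higher and 2 lower in hd2c-3 (0.127% and 0.133% of all genes were called each way) and 0 of the 53, where limma called 21 genes higher and 22 lower over all.

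**Figure D5:**
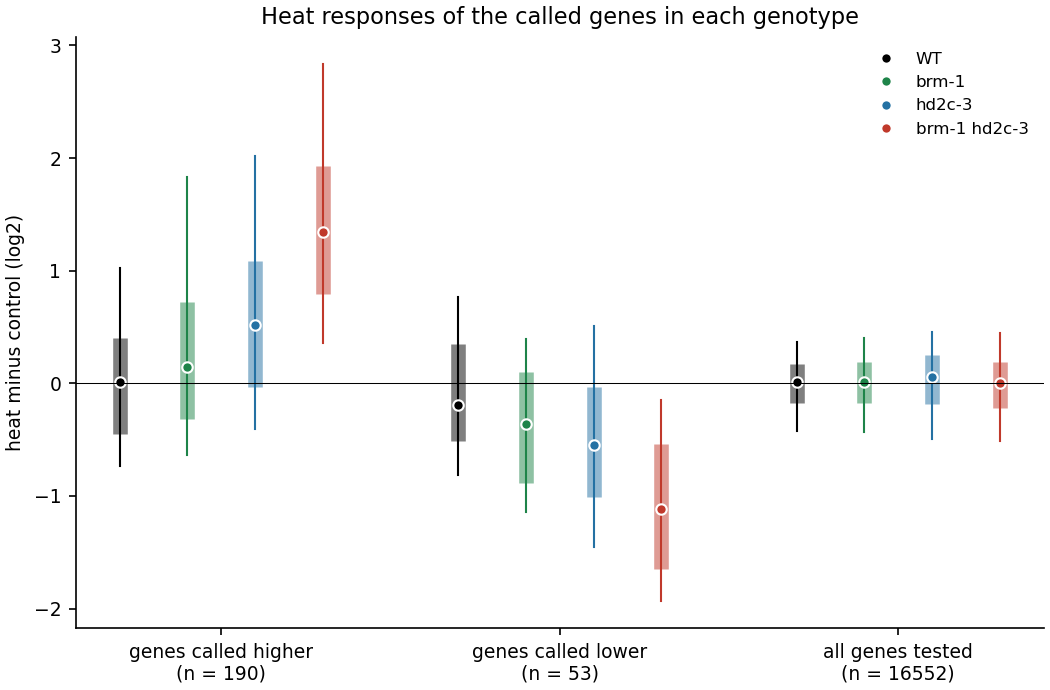
Heat response (log2) of the 190 genes called higher, the 53 called lower and all 16552 genes in each genotype, as median (point), quartiles (thick bar) and the span from the 10th to the 90th percentile (thin line). The points of the genes called higher stand at 0.01 in WT, 0.14 in brm-1, 0.52 in hd2c-3 and 1.35 in brm-1 hd2c-3. The genes were chosen by the difference between WT and brm-1 hd2c-3, with a spread pooled over all 8 groups.

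Over all genes, the heat response of the double mutant differed from that of brm-1 at 389 genes (2.35%) and from that of hd2c-3 at 37 (0.224%). Against hd2c-3 the count was 13 without double mutant heat replicate 3 and 53 without double mutant heat replicate 2, and against brm-1 these counts were 223 and 550. The brm-1 heat response differed from that of WT at 31 genes (0.187%), and the hd2c-3 response at 0 by limma (0%), with 1105 genes at an unadjusted p under 0.05. These comparisons share arrays of the double mutant or WT with the one that chose the genes, so their members are given as values only. COR47 had heat responses of 0.77 ± 0.23 in hd2c-3, 0.02 ± 0.23 in brm-1 and 2.46 ± 0.23 in the double mutant. ABR1 had 1.21 ± 0.35 in hd2c-3, −0.31 ± 0.35 in brm-1 and 2.28 ± 0.35 in the double mutant. AT4G21870 had −0.11 ± 0.23, 1.39 ± 0.23 and 1.61 ± 0.23, so that here brm-1 and not hd2c-3 was close to the double mutant.

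At few genes was the change in the double mutant called different from the sum of the single-mutant changes. This contrast of all 8 groups has a larger SE than the change itself (0.39 against 0.28 for HEMA2). A missing call therefore does not show additivity. The departure from that sum was called at 13 genes (0.0785%, with 1317 at an unadjusted p under 0.05), at 22 with array weights and at 0 without moderation of the variances. It was 0 without WT control replicate 1, double mutant control replicate 1 or double mutant heat replicate 3. Of the 190 genes called higher 5 were among the 13. Among the 190 the departure had the sign of the change at 155, with a median of 0.54, and 70 of these had an unadjusted p under 0.05. For the 53 called lower these values were 42, −0.25 and 5. The arrays that chose these genes also enter the departure, so these values are a description. Named genes among the 13 were ATPMEPCRB, with a departure of 2.47 ± 0.41 (limma adjusted p = 0.0222), and TET8, with 1.70 ± 0.33 (adjusted p = 0.0423). ATPMEPCRB fell with heat in brm-1, from 5.34, 6.13 and 5.85 to 4.81, 4.90 and 4.10, and read 5.71, 5.41 and 5.02 and then 4.64, 4.94 and 4.88 in hd2c-3, so a rise was called in the double mutant and in no other genotype. AT1G70640 and AT3G04010 were also called, with departures of 4.43 ± 0.79 (adjusted p = 0.032) and 2.5 ± 0.42 (limma adjusted p = 0.023).

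The named genes differed in how far they rest on single arrays. When each of the 12 arrays was left out in turn, 14 of the 23 named genes kept their call throughout: ABR1, AGL94, AT4G21870, ATPMEPCRB, COR15B, COR47, CYTC-2, EXLA2, HEMA2, NANA, NDB2, SFP2, TET8 and TOPII. The 9 others, WRKY6, FBL17, NET3C, ROF2, KIN2, LTI30, 3xHMG-box1, NTMC2T6.2 and BUB3.1, lost it without between 2 and 12 of the arrays, always in the same direction.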

How the data were processed

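The deposited values are log2 intensities of Affymetrix whole-transcript arrays, 1 column for each of 24 samples, hybridised with biotin-labelled cDNA of total RNA. RMA and Partek are named, with no version, per the submitters' processing notes, and further steps are not given in the sources used here. Genes were named from the platform table: 16746 of 38408 probe sets carry 1 gene, and the 758 with several and the 20904 without a name were left out. The brightest probe set stood for each of 16552 genes, of which 16547 were found in the TAIR10.1 gene table, used for names and neighbours only. Sequences and promoters were not analysed here.

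All 24 arrays entered a single model with 1 mean per group (limma 3.58.1, R 4.3.3; 16 residual and 6.25 prior degrees of freedom), with Benjamini-Hochberg adjustment over all genes. The SE pools the spread of all 8 groups. The number of arrays limits the precision. Replicate arrays correlated at r = 0.98 to 0.99 and none were duplicates. The fit was checked on simulated data with known changes.

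Named genes have a symbol and no overlap between WT and the double mutant in at least 1 condition: the 12 largest changes each way, the 5 largest per source, and up to 3 called members of each list, for which a symbol was not asked. Genes, lists and tests were chosen with earlier results of these data known. Plots were drawn with matplotlib 3.10.9. Alternatives were scaling, filters, variance models, samples, a replicate block and left-out arrays.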

Additional observations from a re-analysis of the deposited data

Results flagged for a closer look

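For several named genes limma called a difference between the heat responses of the double mutant and a single mutant, which uses no WT array. The heat response of the double mutant minus that of brm-1 was 2.44 for COR47, 2.59 for ABR1, 2.28 for ATPMEPCRB and 1.92 for TET8. It was 1.71 for NTMC2T6.2, 1.59 for LTI30, 1.54 for NDB2 and 1.23 for HEMA2. For AGL94 it was 0.98, for CYTC-2 0.89, for WRKY6 0.86 and for KIN2 0.71. LTI30, WRKY6 and KIN2 fell with heat in brm-1 (−1.06, −0.60 and −0.64) and had no call in the double mutant, so theirs was no larger rise. The double mutant minus brm-1 difference was −1.0 for TOPII and −1.02 for FBL17. Against hd2c-3 the double mutant exceeded it by 1.69 for COR47, 1.34 for NANA, 1.67 for ATPMEPCRB and 1.72 for AT4G21870. Beyond the sum of both single-mutant changes, the double mutant stood 1.70 higher for TET8 and 2.47 higher for ATPMEPCRB. With all probe sets in the fit, 193 of 21662 probe sets without a single gene name (0.891%) were also called in the double mutant change in heat response, 129 higher and 64 lower, with sizes from −2.61 to 3.30. No group has the 4 arrays needed for a test of outlying samples.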

How the results depend on the processing

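Leaving out 1 of the 12 arrays at a time, the genes called numbered 138 to 311, those higher 114 to 221 and those lower 24 to 90. Heat levels made the change at 99 to 226 genes, control levels at 5 to 21 and both at 25 to 69. The double mutant differed from WT at 308 to 570 genes in control and 1093 to 1747 after heat. Heat responses were called at 1549 to 2363 genes in WT and 2854 to 3544 in the double mutant, whose response differed from hd2c-3 at 13 to 53 genes, from brm-1 at 223 to 550 and from additivity at 0 to 20. Array weights gave 83 lower genes, 902 in control and 22 beyond additivity. Equal array medians gave 31 lower and 20 against hd2c-3. An intensity trend in the variances gave 374 genes in all, 110 lower, 248 from heat levels, 36 from control levels, 61 against hd2c-3 and 29 beyond additivity. Keeping genes with a mean of at least 4 gave 437, 159 lower, 285, 53 and 99 from heat, control and both levels, 58 against hd2c-3, 604 against brm-1 and 39 beyond additivity. At a mean of at least 5 these were 412, 157, 255, 59, 98 and 58, with 54 beyond additivity. Fewer genes were tested there, by construction. Without moderation there were 14 against hd2c-3 and 0 beyond additivity. An adjusted p under 0.10 gave 449 genes, 316 higher and 133 lower. A 2-fold minimum left 24 lower genes, and share limits of 3/4 and 1/4 left 11 from control levels. For the other settings the cause was not tested. The share of calls that were higher was 78.2%, against 86.3% with equal medians and 84.2% with cyclic loess, which moved the median of all genes by 0.04 and 0.03. A replicate block gave 288 genes, 226 higher and 62 lower, 39 against hd2c-3, 438 against brm-1 and 9 beyond additivity. Deviations of same-numbered arrays from their group means correlated at r from −0.22 to 0.27, over 18 pairs of groups and numbers. Differently numbered arrays were not compared, so this does not settle whether the numbers pair samples. Over the 23 named genes, 399 of 489 alternative values kept the call, 90 lost it and 0 changed sign. With 3 arrays per group chosen for alike marker levels, small changes and dim genes are the least certain.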
